A study of Arabidopsis thaliana with 4 samples.

Results

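BHLH92 (AT5G43650) and AT1G33760 are the 2 transcription factor genes with the most negative nai1-1 over Col-0 ratio among the named genes of an Arabidopsis thaliana root array study. BHLH92 encodes a basic helix-loop-helix (bHLH) protein and AT1G33760 a protein of the AP2/ERF family. They are 2 of 9254 genes that had a probe assigned to a single gene, and each had 1 such probe. They were chosen by their mean ratio on these 4 arrays, so their ratios are described without a test.

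nai1-1 is a mutant that lacks ER bodies, spindle-shaped bodies that bud from the endoplasmic reticulum in Arabidopsis and its relatives, and Col-0 is the wild type it was set against. Roots came from plants 20 days old, grown untreated under constant light at 22 °C. The MS medium held 0.5% gellan gum and 1% sucrose, and the genotypes shared a plate. Each genotype's RNA was a pool of 3 plants. The 4 two-colour Agilent arrays each carried both genotypes. On arrays 1 and 4 the mutant RNA was labelled with Cy3, and on arrays 2 and 3 with Cy5. Replicate numbers 1 to 4 in the labels do not say whether each array had its own pools of plants, so errors and p-values cover array-to-array spread only, possibly technical. Whether the nai1-1 lesion lowers the NAI1 transcript, and where the NAI1 probe lies relative to it, is not given in the sources used here.

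Proteins of the bHLH family bind DNA as dimers at E-box motifs. NAI1, the gene mutated in nai1-1, encodes a bHLH protein needed for ER body formation. BHLH92 is known as a gene that responds to salt and osmotic stress in seedlings. AP2/ERF proteins carry 1 or more AP2 DNA-binding domains. The family includes the ethylene response factors, which bind GCC-box motifs, and the DREB branch, which binds the dehydration-responsive element and includes regulators of cold and drought responses. Many members of this branch respond to wounding, touch, jasmonate or water loss.

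Ratios are given as log2 of nai1-1 over Col-0. A negative value means less transcript in the mutant, and -1 means that it had 2-fold less. The direction was set from the dyes in the labels and from the way the extraction software forms its ratio, Cy5 divided by Cy3, which the labels do not state. If the deposited ratios were formed the other way, every sign would turn. The ratios carry no intensity, so the level of either transcript in either genotype is not known, and neither is the precision of a dim spot. In whole roots, fewer cells of a type and less RNA per cell cannot be told apart. The presence of the labelled tissue could not be checked from ratios either.

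BHLH92 had log2 ratios of -3.07, -3.31, -2.91 and -3.11 on arrays 1 to 4. The 4 values lay close together and all stood far below the bulk of the other genes. They correspond to 8.39-fold, 9.93-fold, 7.50-fold and 8.63-fold less transcript in nai1-1 roots. The mean was -3.10 ± 0.17 (SD, n = 4), which is 8.57-fold less. Among 9335 single-gene probes, BHLH92 ranked from 4th to 10th from the lowest on the 4 arrays, and its mean ranked 5th. Its SD between arrays was lower than that of 69.3% of these probes.

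AT1G33760 had log2 ratios of -2.76, -2.67, -3.32 and -3.75 on arrays 1 to 4. Arrays 3 and 4 gave lower ratios than arrays 1 and 2. The mean was -3.13 ± 0.51 (SD, n = 4), which is 8.73-fold less in nai1-1 roots, with single arrays between 6.37-fold and 13.5-fold. It ranked from 4th to 7th from the lowest on the 4 arrays, and its mean ranked 4th. Its SD between arrays was higher than that of 93.4% of the single-gene probes.

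The 2 genes had nearly the same mean and a different spread. AT1G33760 minus BHLH92 was 0.31 and 0.64 on arrays 1 and 2, and -0.42 and -0.64 on arrays 3 and 4. The mean difference was -0.03 ± 0.30 (SE, n = 4), smaller than its error. This SE came from the 4 differences alone, and the SE given for single genes came from the limma fit. AT1G33760 was therefore the less reduced gene on arrays 1 and 2 and the more reduced one on arrays 3 and 4.

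**Figure D1:**
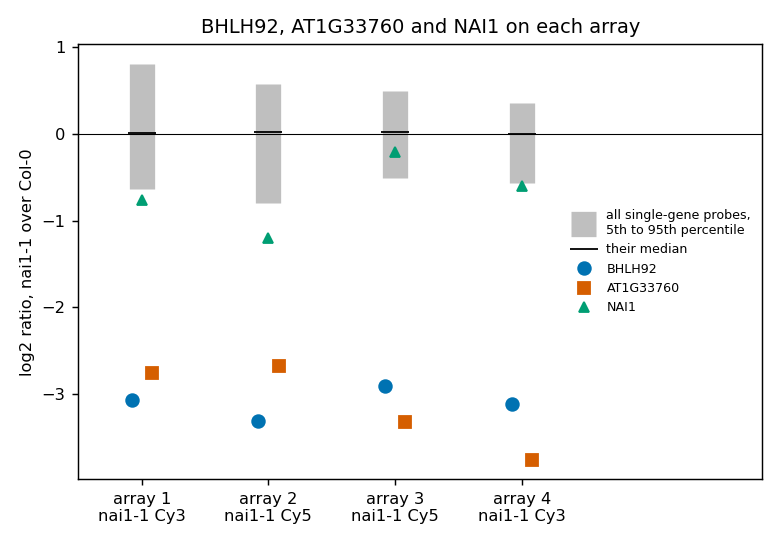
Log2 ratio of nai1-1 over Col-0 (vertical axis) on arrays 1 to 4 for BHLH92 (circles), AT1G33760 (squares) and NAI1 (triangles). Grey bars run from the 5th to the 95th percentile of the 9335 single-gene probes, with their median as a black dash, and both genes lie below -2.6 on every array, far under the bars.

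The ratios turned with the dyes. For BHLH92 the deposited log10 ratios of Cy5 over Cy3 were 0.924 and 0.936 on arrays 1 and 4, where nai1-1 was in Cy3, and -0.997 and -0.875 on arrays 2 and 3, where it was in Cy5. For AT1G33760 they were 0.831 and 1.13 on arrays 1 and 4, and -0.804 and -1 on arrays 2 and 3. The dye effect, which the choice of the genes did not use, was -0.01 ± 0.10 for BHLH92 (SE, n = 4, limma, adjusted p = 0.991) on the log2 scale. For AT1G33760 it was 0.13 ± 0.22 (SE, n = 4, limma, adjusted p = 0.901). The dye term passed the threshold for 0% of all 22575 probes, with 1217 at an unadjusted p under 0.05. A missing call does not show that no dye effect was present.

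The genes next below in size show where the choice ended. AT5G52020, listed here in the DREB branch of the AP2/ERF family, was just outside with a mean of -2.98, and AT1G33760 and BHLH92 were just inside at -3.13 and -3.10. The next transcription factor genes were AT1G19210, also listed in the DREB branch, at -1.74 and ORA47 (AT1G74930), an AP2/ERF gene of jasmonate responses, at -1.70. Transcription factor genes were recognised by symbol, synonym or list, so others may lie among the loci without such a name.

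AT1G33760 was not the only AP2/ERF gene with low ratios. The 19 other genes recognised as AP2/ERF were 18 of 39 listed for the DREB branch and DREB2C, so they describe that branch and not the ethylene response factors. Among them, 4 had a mean below -1, where 1.66% of all single-gene probes did. The list was written with earlier results of these arrays known and is no independent evidence of a direction. In limma on all probes with Benjamini-Hochberg adjustment at 0.05, 0 of the 19 were called lower and 0 higher, against 0.578% and 0.0107% of single-gene probes (0.483% and 0.0133% of all probes). In the same fit on the probes that held no ratio of exactly 0 on any array, 4 of the 19 fell, against 3.5% of single-gene probes, and 0 rose, against 0.627% (2.99% and 0.617% of all probes). At an unadjusted p under 0.05 the fit on all probes had 5 of the 19 lower and 2 higher, beside 1651 lower and 1262 higher of all 22575 probes. The 19 genes had a median of -0.09, beside 0.02 over all single-gene probes, and 4 were lower on all 4 arrays, where 12.2% of single-gene probes were, while 2 were higher on all 4, where 12.9% were.

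AT5G52020 had log2 ratios of -2.47, -2.34, -3.45 and -3.65 on arrays 1 to 4. As with AT1G33760, arrays 3 and 4 were the lower ones. Its mean was -2.98 ± 0.29 (SE, n = 4), 7.89-fold less in nai1-1, with a limma adjusted p of 0.057 on all probes and 0.00224 without exact 0 values. AT4G32800, also listed in the DREB branch, had -0.99, -1.52, -1.12 and -1.21. These 4 values overlapped between the array pairs, and its mean was -1.21 ± 0.11 (SE, n = 4, limma adjusted p = 0.051 on all probes and 0.00428 without exact 0 values).

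ORA47 had log2 ratios of -1.14, -1.21, -2.14 and -2.33 on arrays 1 to 4. Its mean was -1.70 ± 0.27 (SE, n = 4, limma adjusted p = 0.113 on all probes and 0.012 without exact 0 values). AT1G19210 had -0.47, -1.35, -2.50 and -2.63, a range of more than 2 units. Its mean was -1.74 ± 0.43 (SE, n = 4, limma adjusted p = 0.225 on all probes and 0.047 without exact 0 values). Without exact 0 values AT5G52020 and AT4G32800 also passed when any single array was left out (limma adjusted p from 0.000211 to 0.0198 and from 0.00257 to 0.0423). In such fits, with genotype and dye terms on fewer arrays, each probe had little left to estimate its own spread. AT1G19210 lost its call without array 2 (adjusted p = 0.123) or array 3 (adjusted p = 0.202), and ORA47 without array 3 (adjusted p = 0.0733). With arrays 1 and 2 and arrays 3 and 4 averaged as 2 replicates, both lost their calls (limma adjusted p = 0.198 for AT1G19210 and 0.101 for ORA47).

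The other 15 AP2/ERF genes lay between -0.62 and 0.50. AT5G21960 was at -0.62 ± 0.17 and AT1G44830 at -0.52 ± 0.26 (SE, n = 4). AT1G44830 had -0.04 and 0.03 on arrays 1 and 2, and -1.05 and -1.02 on arrays 3 and 4. At the upper end AT2G44940 was at 0.50 ± 0.10 (limma adjusted p = 0.161) and AT3G60490 at 0.36 ± 0.12 (limma adjusted p = 0.322), both higher on 4 of 4 arrays. The dehydration-responsive regulator DREB2C was at -0.15, HRD at -0.07 and TINY2 at 0.12.

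The other bHLH genes recognised here by symbol, synonym or list had ratios nearer to 0 than BHLH92. Among these 13 genes 0 had a mean below -1, and with 1.66% of all single-gene probes below -1 this is near the background. With limma, 0 were called lower and 0 higher on all probes and also without exact 0 values. Of single-gene probes, 0.578% and 3.5% were lower in these fits. At an unadjusted p under 0.05 the fit on all probes had 2 of the 13 lower and 0 higher. Over all 22575 probes, 1651 were lower and 1262 higher at that level. The means of the 13 genes ran from -0.70 to 0.33 with a median of 0.11. The most negative was NAI1 itself, with -0.77, -1.21, -0.21 and -0.60 on arrays 1 to 4 and a mean of -0.70 ± 0.19 (SE, n = 4, limma adjusted p = 0.259). BHLH92 was thus below NAI1 on every array, although a log2 ratio says nothing about which transcript is more abundant.

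Of 4 genes listed here for the bHLH subgroup of NAI1, 3 were measured, NAI1 among them. The 2 others measured, AT4G37850 and AT2G22750, were at -0.06 ± 0.09 and -0.02 ± 0.09 (SE, n = 4). Of the jasmonate-response regulators, MYC3 was at -0.06 ± 0.16 and MYC4 at 0.14 ± 0.24. Of the bHLH genes of iron homeostasis, BHLH101 was at 0.33 ± 0.15, bHLH121 at 0.18 ± 0.08 and ILR3 at -0.05 ± 0.09. AT1G72210, a further bHLH gene, was at -0.29 ± 0.09 (limma adjusted p = 0.328) and lower on 4 of 4 arrays. Only genes with a single-gene probe that symbol, synonym or list marks as family members were counted, so both families were seen in part.

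**Figure D2:**
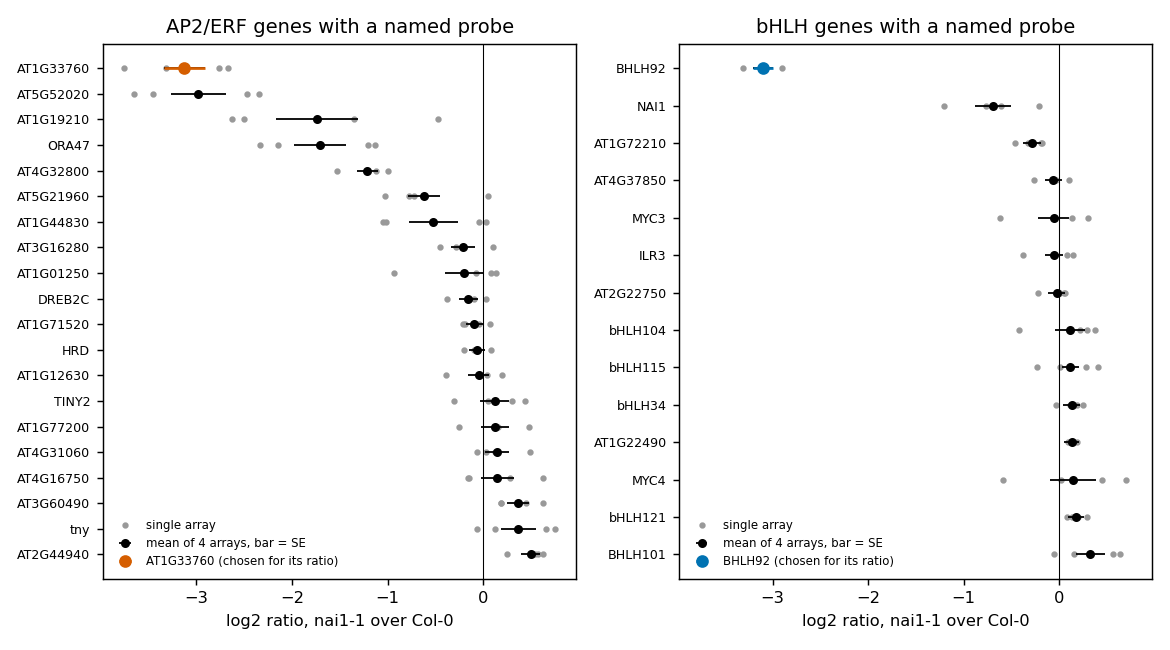
Log2 ratio of nai1-1 over Col-0 (horizontal axis) for each AP2/ERF gene (left) and bHLH gene (right) with a named probe. Grey points are single arrays, larger points are means of 4 arrays with bars of 1 SE, and the coloured points are AT1G33760 and BHLH92, which were chosen for their ratio. In the left panel AT5G52020, AT1G19210, ORA47 and AT4G32800 also lie below -1, and in the right panel BHLH92 alone of the genes shown does.

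Genes with the most similar ratios were sought by the root mean square (RMS) difference of the 4 log2 ratios, over 4 arrays and all single-gene probes. A small RMS difference asks for a similar size of the reduction as well as a similar spread over arrays. Any gene near BHLH92 or AT1G33760 therefore has a strongly negative mean by construction. A shared pattern over arrays follows in part from the choice as well. The measure is a description.

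BHLH92 lay nearest to NAI2 (AT3G15950), an ER body component needed for the formation of these bodies, with an RMS difference of 0.33. NAI2 had -2.52, -3.09, -2.75 and -2.86 on arrays 1 to 4. JAL23 (AT2G39330), a jacalin-related lectin gene, came next at 0.43, with -2.61, -3.55, -3.08 and -2.44. AT1G66800 followed at 0.49, AT1G33760 at 0.52 and AT1G20310 at 0.60. By mean, NAI2 was at -2.81 on both pairs of arrays. JAL23 was at -2.76 on arrays 3 and 4, against -3.08 on arrays 1 and 2. BHLH92 also had the less negative mean on arrays 3 and 4, at -3.01 against -3.19.

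AT1G33760 lay nearest to AT5G52020, its fellow AP2/ERF gene, with an RMS difference of 0.24, the smallest found for either gene. AT2G25460 came next at 0.45, with -2.19 and -2.36 on arrays 1 and 2 and -3.92 on each of arrays 3 and 4. BHLH92 followed at 0.52, AT3G01830 at 0.56 and AT1G66800 at 0.57. AT3G01830 had -2.0, -1.87, -3.42 and -3.62. AT5G52020, AT2G25460, AT3G01830 and AT1G66800 each shared with AT1G33760 the lower ratios on arrays 3 and 4, AT1G66800 by a small margin (-2.76 on arrays 3 and 4, against -2.57 on arrays 1 and 2).

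**Figure D3:**
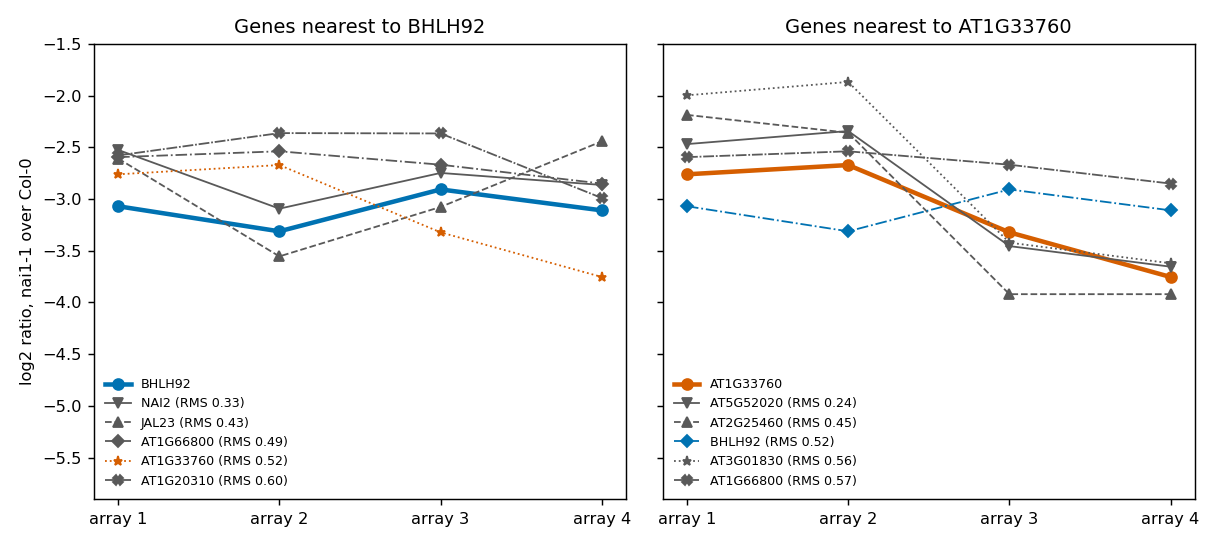
Log2 ratio of nai1-1 over Col-0 (vertical axis) on arrays 1 to 4 (horizontal axis) for BHLH92 and its 5 nearest genes (left) and AT1G33760 and its 5 nearest genes (right), with the RMS difference in the legend. Lines only join the points of a gene and imply no order of the arrays. BHLH92 stays between -3.31 and -2.91, and AT1G33760, AT5G52020, AT2G25460, AT3G01830 and, by a small margin, AT1G66800 are lower on arrays 3 and 4 than on arrays 1 and 2.

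This contrast between the array pairs, noticed in the values, separates BHLH92 from AT1G33760. Each pair holds both dye orientations. For AT1G33760 the mean ratio was -3.54 on arrays 3 and 4, against -2.72 on arrays 1 and 2. For BHLH92 it was -3.01 on arrays 3 and 4, against -3.19 on arrays 1 and 2, and for NAI2 it was -2.81 on both pairs. NAI1 ran the other way, at -0.41 on arrays 3 and 4, against -0.99 on arrays 1 and 2. Both of its ratios on arrays 3 and 4 were above both on arrays 1 and 2, as for 16.6% of all single-gene probes.

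Both ratios of arrays 3 and 4 were below both of arrays 1 and 2 for 20.1% of all single-gene probes and for 46.5% of the 155 with a mean below -1. Among the other AP2/ERF genes with a mean below -1 this held for 3 of 4, AT4G32800 being the exception. Over all 19 other AP2/ERF genes it held for 6. In 8 of the 19, both ratios of arrays 3 and 4 were above both of arrays 1 and 2, against 16.6% of all single-gene probes. The rapid touch and wound response genes showed it in 6 of 9. Arrays 1 and 2 had the wider spread over all probes, with median absolute deviations of 0.262 and 0.219, against 0.147 and 0.125 on arrays 3 and 4. What differed between the pairs of arrays is not given in the sources used here, and its part in these ratios was not tested.

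Genes of pathways named above for BHLH92 or for the AP2/ERF family were described by list. Of 24 listed genes of the rapid touch and wound response, 9 were measured, and all 9 were lower in nai1-1 on 4 of 4 arrays, where 12.2% of single-gene probes were, with a median of -1.64. On all probes 0 of them were called with limma. At an unadjusted p under 0.05, 9 were lower, beside 1651 of all 22575 probes. Without exact 0 values 8 fell, where 3.5% of single-gene probes did. PUB24, at -0.50 ± 0.09 (SE, n = 4), did not pass in that fit (limma adjusted p = 0.0642). CML38 (AT1G76650), a calmodulin-like gene, was at -2.19 ± 0.23 (limma adjusted p = 0.0631 on all probes and 0.00306 without exact 0 values). The U-box ubiquitin ligase genes PUB23 and PUB22 were at -1.89 ± 0.25 and -1.65 ± 0.21. This list was written with earlier results of these arrays known and is no independent evidence of a direction.

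In the list of osmotic and salt responses, the setting in which BHLH92 is known, 4 of 16 genes were measured and 0 passed, in the limma fit on all probes or without exact 0 values, or at an unadjusted p under 0.05. With 0.578% of single-gene probes called lower on all probes and 3.5% without exact 0 values, a count of 0 among so few genes is near the background. KIN2 was at 0.25 ± 0.12, COR47 at 0.23 ± 0.12, KIN1 at 0.02 ± 0.10 and COR15A at -0.34 ± 0.28 (SE, n = 4), with a median of 0.12. COR15A had -0.84 and -0.95 on arrays 1 and 2 and 0.32 and 0.11 on arrays 3 and 4. In the list of jasmonate and wound responses 3 of 22 genes were measured, JMT, THI2.1 and PDF1.2, with a median of -0.11. Again 0 passed in either limma fit or at an unadjusted p under 0.05. For 3 genes this too is near the background. The ethylene regulator EIN3, 1 of 16 listed ethylene genes, was at 0.01 ± 0.17.

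Of the root ER body genes, 11 of 15 were measured on 12 probes, of which 8 fell on all probes, where 0.578% of single-gene probes did, and 0 rose, with a median of -1.82. With any single array left out, that fit called 0 of all probes, these included. With genotype and dye terms on fewer arrays, each probe then had little left to estimate its own spread. By mean, the lectin genes JAL22, JAL33 and JAL31 were lower than BHLH92 and AT1G33760, and the rest of this list was less reduced. This list too was written with earlier results known.

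Markers of other tissue were read as ratios. The 4 measured of 20 photosynthesis genes, used as shoot markers, lay between -0.18 and -0.09, and 0 passed in either limma fit or at an unadjusted p under 0.05. Lower calls made up 0.578% of single-gene probes with every probe fitted, and 3.5% once exact 0 values were left out. A count of 0 of 4 is therefore near the background. Of 16 markers of root cell types, 3 were measured, all of root hairs, and all were higher in nai1-1 on 4 of 4 arrays, where 12.9% of single-gene probes were. GH9C1 was at 0.61 ± 0.11, EXPA7 at 0.59 ± 0.09 and EXPA18 at 0.38 ± 0.14 (SE, n = 4). On all probes 0 of the 3 passed with limma. At an unadjusted p under 0.05, 2 were higher, beside 1262 of all 22575 probes. Without exact 0 values GH9C1 and EXPA7 rose (limma adjusted p = 0.043 and 0.0357), where 0.627% of single-gene probes did. The marker lists too were written with earlier results of these arrays known and are no independent evidence of a direction. The part of these genes in the ratios of BHLH92 and AT1G33760 was not tested.

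The nearest measured genes around either locus were not reduced to a similar extent. The farthest of them were AT5G43560, 9 places before BHLH92, and AT1G33610, 10 places before AT1G33760. The genes directly beside BHLH92 and directly after AT1G33760 had no single-gene probe. For BHLH92 the nearest 3 measured genes on each side in gene order lay between -0.30 and 0.08. With limma 0 of the 6 passed, and 1 was lower at an unadjusted p under 0.05, as were 1651 of all 22575 probes. TZP, 2 places before BHLH92, was at -0.30 ± 0.11 (SE, n = 4, limma adjusted p = 0.366) and AT5G43670, 2 places after BHLH92, at 0.00 ± 0.10. For AT1G33760 the 6 neighbours lay between -0.14 and 0.71. With limma 0 passed, and 2 were higher at an unadjusted p under 0.05, as were 1262 of all 22575 probes. AT1G33750, the gene directly before AT1G33760, had 1.19, 0.88, 0.42 and 0.34 on arrays 1 to 4, higher in nai1-1 on every array. Its mean was 0.71 ± 0.18 (SE, n = 4, limma adjusted p = 0.243 on all probes and 0.0814 without exact 0 values).

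**Figure D4:**
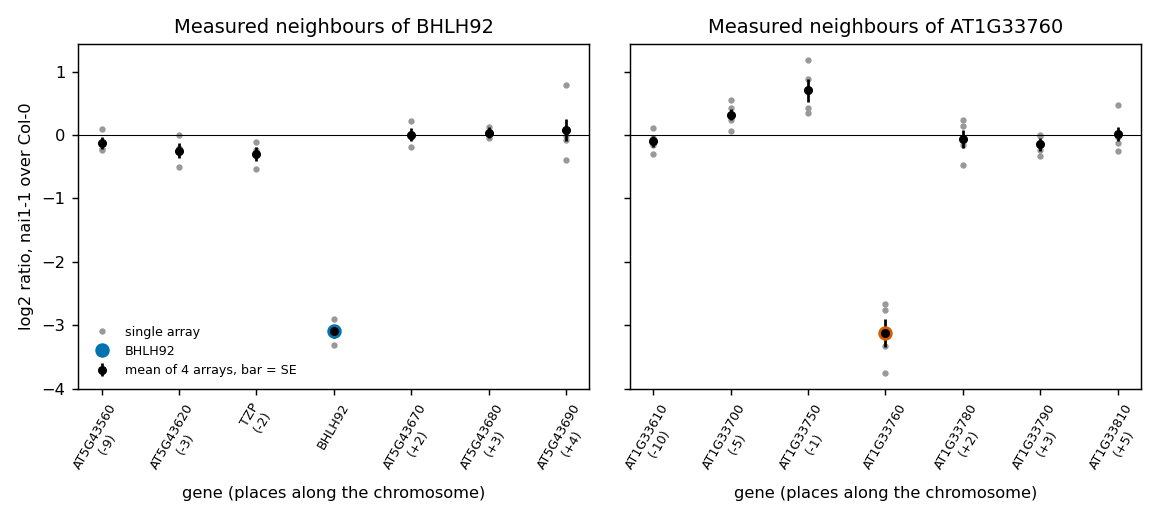
Log2 ratio of nai1-1 over Col-0 (vertical axis) for BHLH92 (left) and AT1G33760 (right) and their nearest 3 measured genes on each side, in gene order along the chromosome, with the number of places from the gene in brackets. Grey points are single arrays and larger points are means of 4 arrays with bars of 1 SE, and the neighbours lie between -0.30 and 0.71 where both genes are near -3.1.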

How the data were processed

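The authors deposited a log10 ratio of the channels for each probe on each array. Per the submitters' processing notes it came from Agilent Feature Extraction 7.1, whose background and dye settings the sources used here do not give. With ratios alone, no spot could be removed as dim, saturated or a control. Dividing by 0.301 gave the log2 scale, and the sign of arrays 1 and 4 was reversed to read nai1-1 over Col-0.

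Of 22575 probes, 9335 had a single gene, 40 had several and 13200 were not listed in the platform annotation. Symbols were updated through a RefSeq table of assembly TAIR10.1 for 9317 probes, and 18 kept their own. That assembly served for names and gene order only.

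The fit used lmFit and eBayes of limma 3.58.1 (R 4.3.3) on all probes, with genotype and dye terms, a two-sided test and Benjamini-Hochberg adjustment at 0.05. This fit was tested on simulated data. The SE of a gene's mean or dye effect came from this fit, with its spread drawn towards that of all probes. The 1016 probes with a ratio of exactly 0 on any array were kept in the fit on all probes and left out in an alternative. Other alternatives were no dye term, median centring, equal spread, array weights and leaving out each array.

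Families came from symbols, synonyms and hand-written lists (11 lists, 183 loci). Named genes were the 5 nearest by RMS difference, 3 measured neighbours on each side, the 3 next transcription factors, NAI1, and called genes or up to 3 per list by smallest p. Remaining AP2/ERF and bHLH genes were named as family members after their values were seen. A planned search for related proteins by sequence was not run, and no sequences were used here. Members and lists were chosen with earlier results of these data known.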

Additional observations from a re-analysis of the deposited data

Results flagged for a closer look

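Single arrays were compared within each of the 56 probes examined, and by Dixon's test 1 array stood away from its fellows in 2 of them, where chance flags about 1 in 20. JAL31, a jacalin-related lectin gene, had -4.35 on array 2 and -3.45 to -3.42 on the other arrays. AT1G54010 had -1.32 on array 1 and -1.75 to -1.71 on the others. Neither BHLH92 nor AT1G33760 had an array apart by this test.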

How the results depend on the processing

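Each array holds both genotypes, so every ratio is already a paired comparison within an array. No further pairing is given by the labels, which form 1 group of ratios. BHLH92 stayed between -3.22 and -3.00 and AT1G33760 between -3.40 and -2.88 under all 9 planned settings. On all probes 109 were called lower and 3 higher. Without the dye term 333 were lower and 61 higher, with equal spread 0 and 0, and without exact 0 values 645 and 133. Leaving out any array gave 0 and 0, in fits where each probe had little left to estimate its own spread. Of the other AP2/ERF genes 0 were called lower on all probes, 2 without the dye term and 4 without exact 0 values. Fits that made a second change beside removing exact 0 values were added after the data had been seen. With 1 array left out as well, 192 to 632 probes were lower, 13 to 307 higher and 2 to 4 AP2/ERF genes lower. With arrays 1 and 2 and arrays 3 and 4 averaged as 2 replicates, 117 probes were lower and 4 higher, and 2 AP2/ERF genes were lower, AT5G52020 (adjusted p = 0.0473) and AT4G32800 (adjusted p = 0.0415). The other bHLH genes gave 0 in every setting run. The cause of these changes was not tested. Values near 0 changed sign, all without passing. The dye effect of BHLH92 was 0.08 with equal spread and ranged from -0.11 to 0.09 with 1 array left out, and that of AT1G33760 from -0.12 to 0.38. With equal spread AT5G43670 was at -0.03, AT1G33780 at 0.01, AT1G33810 at -0.03, MYC3 at 0.01 and EIN3 at -0.00. With 1 array left out, AT5G43670 ranged from -0.1 to 0.1, AT5G43680 from -0.01 to 0.08, AT5G43690 from -0.14 to 0.29, AT1G33780 from -0.22 to 0.1, AT1G33810 from -0.11 to 0.14, AT2G22750 from -0.09 to 0.04, MYC4 from -0.18 to 0.46, MYC3 from -0.25 to 0.13, JMT from -0.22 to 0.00 and EIN3 from -0.15 to 0.18.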
